A study of Mus musculus with 48 samples.

Results

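The 10 genes described here were selected on measured values: in the same arrays, probes of some of them fell into separate levels across individual mice, in both brain regions, and the others lie beside such a gene on the chromosome or follow it from mouse to mouse. They are Ccl21a, Gm3893, Slx1b, Pttg1, Gdpd3, Tceanc2, 8430429K09Rik, Dusp18, Pik3ip1 and Tug1, 10 of the 18883 genes that could be named on the array. The array carried 18 probes for them, and all 18 passed the filter on dim probes. Because levels and genotype differences of these probes were the basis of the choice, both are given as a description without a test.

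The study asked how the human PER3 repeat polymorphism affects sleep regulation in mice. RNA came from frontal cortex and hypothalamus of 24 adult mice kept awake for 12 h, 1 array per region and mouse, 48 arrays in all. There were 8 Per3 5/5 mice (labelled Boxhill) and 8 Per3 4/4 mice (labelled Coach), homozygous knock-ins in which the mouse gene carries 5 or 4 of the human PER3 repeats. The remaining 8 mice were wild-type (WT) animals. All 3 groups went through the same sleep deprivation, and no rested mice were part of the series. The targeted alleles were made in C57BL/6-derived embryonic stem cells of a Thy1.1 strain, and chimeras were crossed to C57BL/6J. Per the paper, knock-in and WT mice both descended from the resulting conditional mice after a Cre-deleter cross. Both were bred from homozygous pairs. The paper describes them as genetically the same apart from the repeats, on a C57BL/6 background with minor contributions from the stem cells. Small contributions of other strains may therefore differ between animals of any group. Mice are numbered 1 to 8 within a genotype. DNA genotypes of the 24 mice at the genes below were not analysed here.

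The genes belong to unrelated pathways. Ccl21a is a chemokine that draws CCR7-bearing dendritic and T cells towards lymphoid tissue, and Gm3893 is annotated as a transcribed pseudogene. Slx1b is the catalytic subunit of a structure-specific endonuclease built on Slx4. Pttg1 is securin, which holds separase inactive until chromosomes part. Gdpd3 is a glycerophosphodiester phosphodiesterase that acts on lysophospholipids, and Tceanc2 is related to the transcription elongation factor TFIIS. Dusp18 is a dual specificity phosphatase, Pik3ip1 is a membrane protein that restrains PI3 kinase, and 8430429K09Rik and Tug1 are long non-coding RNAs. In the RefSeq gene order (GRCm38.p6), Slx1b and Gdpd3 lie on chromosome 7 with 4 genes between them. On chromosome 11, 8430429K09Rik has 3 genes between it and Pik3ip1 and 10 between it and Tug1, and Tug1 has 9 between it and Dusp18, while Pttg1 is 563 genes from 8430429K09Rik. Ccl21a and Gm3893 lie on chromosome 4 with 30 genes between them, and Tceanc2 is 905 genes from Ccl21a on the same chromosome.

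RefSeq start windows (250 bases before to 50 after the annotated start, GRCm38.p6) were available for 9 of the 10 genes. Those of 2 pairs whose levels moved together or in opposite directions are shown, because results below turn on these pairs. No window was available for Gm3893, which followed Ccl21a, so that pair is not shown. Capitals mark GGGCGG (a GC box), CCAAT and TATAAA on either strand, and no matches overlapped in these 4 windows. Slx1b is chr7:126695734-126696033 on the minus strand, Gdpd3 is chr7:126766164-126766463 on the plus strand, 8430429K09Rik (the first of 3 annotated starts) is chr11:3452187-3452486 on the plus strand, and Dusp18 is chr11:3894990-3895289 on the plus strand.
Slx1b: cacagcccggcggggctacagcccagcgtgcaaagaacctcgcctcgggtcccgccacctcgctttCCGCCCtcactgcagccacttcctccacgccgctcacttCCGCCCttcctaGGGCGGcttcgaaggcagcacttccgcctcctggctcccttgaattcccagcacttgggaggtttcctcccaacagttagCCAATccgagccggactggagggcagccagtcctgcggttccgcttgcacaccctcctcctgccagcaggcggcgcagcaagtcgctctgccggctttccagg
Gdpd3: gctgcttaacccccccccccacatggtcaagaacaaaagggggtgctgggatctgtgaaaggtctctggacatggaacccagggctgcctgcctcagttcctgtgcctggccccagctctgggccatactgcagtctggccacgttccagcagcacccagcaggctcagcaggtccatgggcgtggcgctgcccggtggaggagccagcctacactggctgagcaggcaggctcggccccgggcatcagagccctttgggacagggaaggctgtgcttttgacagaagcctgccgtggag
8430429K09Rik: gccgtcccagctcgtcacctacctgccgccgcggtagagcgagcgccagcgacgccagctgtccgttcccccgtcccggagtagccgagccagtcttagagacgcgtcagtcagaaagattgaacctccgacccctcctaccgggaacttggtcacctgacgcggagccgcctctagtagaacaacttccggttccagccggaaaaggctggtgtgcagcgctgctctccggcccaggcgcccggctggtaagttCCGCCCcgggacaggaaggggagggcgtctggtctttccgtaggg
Dusp18: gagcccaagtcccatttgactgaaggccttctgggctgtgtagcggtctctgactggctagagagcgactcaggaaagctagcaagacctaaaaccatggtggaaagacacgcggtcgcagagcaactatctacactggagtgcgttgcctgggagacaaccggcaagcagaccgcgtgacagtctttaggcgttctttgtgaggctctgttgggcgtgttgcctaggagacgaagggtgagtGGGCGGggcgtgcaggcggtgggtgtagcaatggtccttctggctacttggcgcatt
The Slx1b window held GGGCGG at 3 places and CCAAT at 1 place, and those of 8430429K09Rik and Dusp18 held GGGCGG at 1 place each. None of these letters was found in the Gdpd3 window. Over all 32851 windows of this length, 35.7% held GGGCGG, 37.4% held CCAAT and 13.6% held TATAAA, so these matches are common and are given as a description of the sequence.

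Levels are log2 signals relative to the 75th percentile of each array, so 0 is the level of a fairly bright probe and values of different probes are not compared. For each probe and region, the widest gap between neighbouring mice was found with at least 2 mice on either side, and a gap of at least 1 log2 unit was taken as 2 levels. By this rule 1.25% of 31242 probes had 2 levels in cortex and 1.49% in hypothalamus, and 50 probes (0.16%) had 2 levels in both with the same 24 mice on each side. Among the 18 probes of the selected genes, 8 probes of 6 genes did: Ccl21a, Slx1b, Pttg1, Gdpd3, 8430429K09Rik and all 3 probes of Tceanc2. Their gaps ran from 2.17 to 5.12 log2 units. Both ends of this range come from Tceanc2 probes whose 3 low arrays were not well above background, so they rest in part on bounds. Dusp18 (A_51_P362738) met the limit in cortex, with a gap of 1.15, but not in hypothalamus, with a gap of 0.66. Every other remaining probe had gaps of at most 0.37. Gm3893, Dusp18, Pik3ip1 and Tug1 therefore had no probe with 2 levels in both regions.

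Technical groupings also divided these arrays. Scans were made on 3 days, with 4 Per3 5/5 and 4 Per3 4/4 mice on day 1, 3 Per3 4/4 and 5 WT mice on day 2, and 4 Per3 5/5, 1 Per3 4/4 and 3 WT mice on day 3. Of the 50 probes with shared levels, 36 separated the 8 mice of day 1 from all others, with gaps of at most 2.09. None of these 36 belonged to the selected genes, and the 10 named ones with the widest gaps were Nab2, Eif4a1, Tmem30a, 4930555G01Rik, Pcbp1, Ppp5c, Ddx3y, Gtf3c6, 2410141K09Rik and BC048507. The other 14 probes were the 8 of the selected genes and 6 without a gene name. One of the 6 unnamed probes (A_52_P788961) had the same mice on each side as 8430429K09Rik. Both regions of a mouse shared 1 of 12 slides with 1 other mouse. Both levels occurred among the mice of a single slide on 3 slides for Slx1b, 8430429K09Rik and Tceanc2, on 4 for Ccl21a and Pttg1, and on 8 for Gdpd3, and every one of these genes had both levels within at least 2 scan days.

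**Figure D1:**
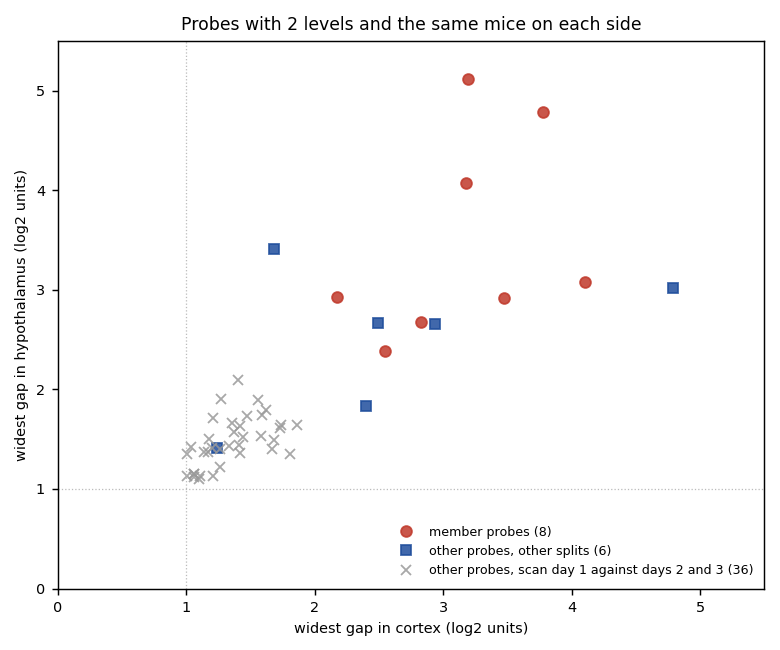
Widest gap between neighbouring mice in cortex (x axis) and hypothalamus (y axis), in log2 units, for the 50 probes with 2 levels in both regions and the same mice on each side. The 8 probes of the selected genes have gaps of 2.17 or more in both regions, while the 36 probes that separate scan day 1 from days 2 and 3 lie at 2.09 or below. The gap of 2.17 rests in part on bounds, because its low arrays were not well above background. Dotted lines mark the limit of 1.

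Array quality and tissue identity were as follows. Between 27875 and 32977 probes per array were well above background, none was saturated, and replicates of a group correlated at 0.968 to 0.989. All 6 cortex markers were higher in cortex and all 8 hypothalamus markers were higher in hypothalamus in limma's paired fit. The probe for Per3 itself read from -2.92 to -2.42 in cortex of Per3 5/5 mice, from -3.54 to -2.53 in Per3 4/4 and between -3.83 and -3.13 in WT. In cortex, Per3 5/5 and WT did not overlap, while Per3 4/4 overlapped both. In hypothalamus the ranges were -3.40 to -2.50, -3.92 to -3.01 and -3.82 to -3.38, and all of them overlapped. Whether this probe lies in the exchanged region was not analysed here.

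Ccl21a (A_51_P129480) had as many mice at the low as at the high level, unevenly spread over the genotypes. In cortex, Per3 5/5 mice ranged from -3.0 to 1.38 with a median of -2.57, Per3 4/4 mice from -2.98 to 1.43 with a median of -0.50, and WT mice from -3.55 to 2.30 with a median of 1.29. Of 8 mice, 1 was at the high level in Per3 5/5, 4 were in Per3 4/4 and 7 were in WT. In cortex the 12 low mice lay between -3.55 and -2.0 and the 12 high mice between 0.84 and 2.30. In hypothalamus the same 12 mice were low, between -6.10 and -4.81, and the same 12 were high, between -2.13 and -0.68. Per3 5/5 mouse 2 was the only high mouse of its genotype, and WT mouse 3 the only low one of its own. Within scan day 3, none of 4 Per3 5/5 mice and all 3 WT mice were high, within day 2, 2 of 3 Per3 4/4 and 4 of 5 WT mice were high, and within day 1, 1 of 4 was high in each knock-in. With normexp background correction the gap in hypothalamus was 0.84, under the limit, with the 24 mice on the same sides.

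Gm3893 (A_52_P311999) followed Ccl21a from mouse to mouse without a gap of its own. Its values ran from 0.69 to 2.76 in cortex and between -0.95 and 0.48 in hypothalamus, and the correlation with Ccl21a across 24 mice (mean of both regions) was 0.91. In cortex it lay between 0.69 and 1.76 in the mice low for Ccl21a and between 1.60 and 2.76 in the mice high for Ccl21a, so the ranges overlapped slightly. In hypothalamus they did not overlap, at -0.95 to -0.58 and -0.45 to 0.48.  The Ccl21 genes are near-identical copies in the mouse, and which of them each probe reads was not analysed here.

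Markers of lymphatic vessels and lymphoid stroma, the known sites of Ccl21a, overlapped between the genotypes, and their part in the levels of Ccl21a was not tested. Of the 6 listed markers 5 were tested (Lyve1, Prox1, Pdpn, Flt4 and Ccl19), and Ccr7, the receptor of Ccl21a, was well above background on 1 of 24 cortex arrays and on 0 of 24 hypothalamus arrays. Their correlations with Ccl21a across mice ran from -0.21 for Prox1 to 0.34 for Ccl19. Their mean level in cortex ranged from -4.61 to -3.53 in Per3 5/5, from -4.47 to -3.77 in Per3 4/4 and between -4.53 and -3.90 in WT. The same mean in hypothalamus ranged from -4.45 to -3.28, -3.88 to -3.28 and -4.09 to -3.39. The 6 markers of meninges had correlations with Ccl21a from -0.06 for Igfbp2 to 0.32 for Dcn. Their mean level in cortex ranged from -1.13 to 0.57 in Per3 5/5, from -0.18 to 0.86 in Per3 4/4 and between -0.24 and 0.55 in WT, and in hypothalamus from -1.01 to 0.88, 0.23 to 1.46 and -0.02 to 0.94. In whole tissue, fewer cells of a type and less RNA per cell cannot be told apart.

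Pttg1 (A_51_P371190) was at the high level in 6 mice: Per3 5/5 mouse 2, Per3 4/4 mice 1, 5, 6 and 7, and WT mouse 6. In cortex these 6 lay between 2.48 and 4.10 and the 18 others between -1.06 and -0.06. In hypothalamus the 6 lay between 2.72 and 4.36 and the 18 others between -0.50 and 0.33. The medians in cortex were -0.47 in Per3 5/5, 1.04 in Per3 4/4 and -0.32 in WT. The median of Per3 4/4 fell in the empty space between the levels, because 4 of its 8 mice were on each side. All 3 Per3 4/4 mice of scan day 2 were high and all 5 WT mice of that day were low, whereas on day 1 the count was 1 of 4 in each knock-in.

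**Figure D2:**
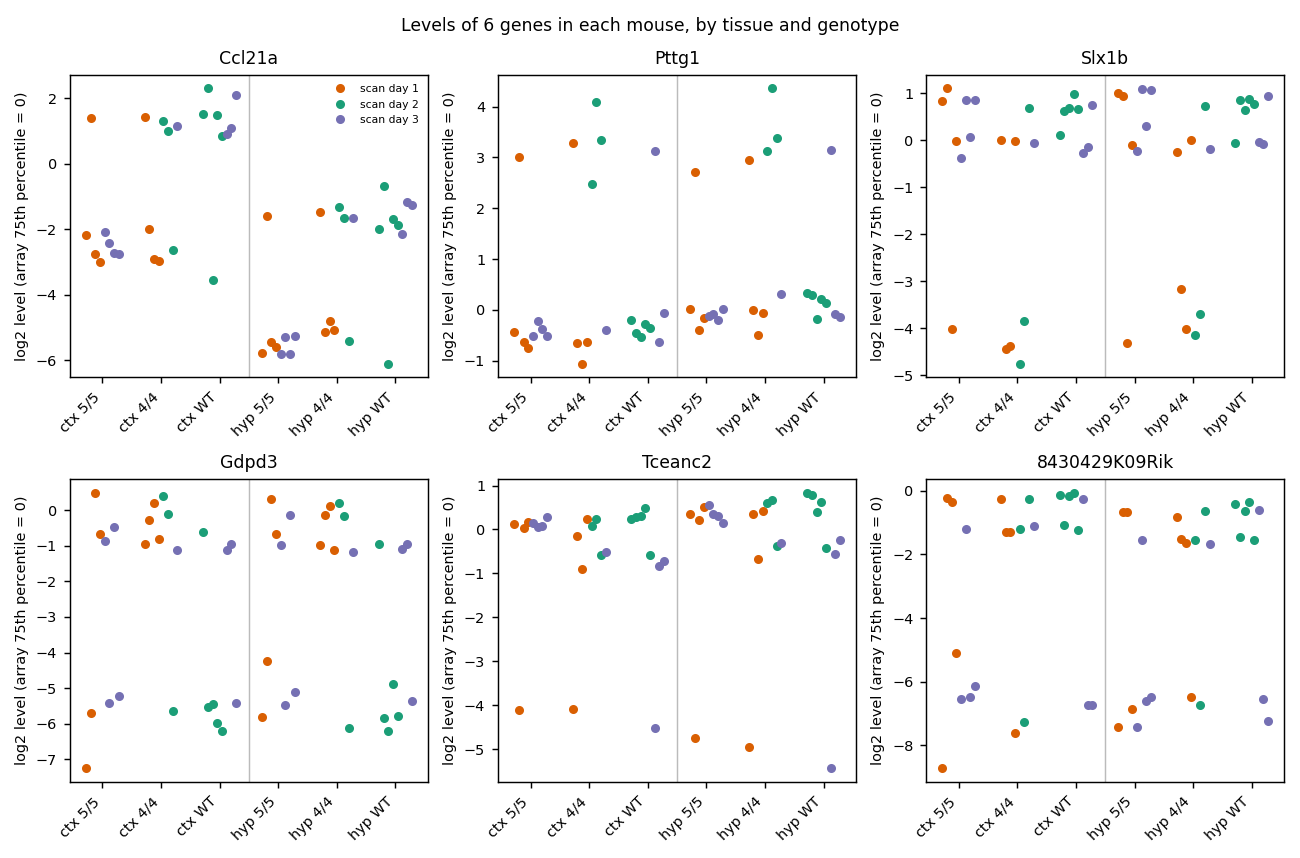
Log2 level (y axis, 0 is the 75th percentile of the array) of 6 genes in each of 24 mice, by region (ctx, cortex; hyp, hypothalamus) and genotype (5/5, 4/4 and WT, 8 mice each), coloured by scan day. Each point is 1 array, and mice of every genotype occur above and below the gap for each gene except Slx1b, whose 8 WT mice are all in the upper part.

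The upper level of these probes was split again at its widest gap, a choice made after the values had been seen. Such a split always divides the level, and all these gaps were under the limit of 1. In cortex and hypothalamus they were 0.52 and 0.33 for Slx1b, 0.72 and 0.62 for 8430429K09Rik, and 0.29 and 0.49 for Gdpd3. For Tceanc2 they were 0.59 and 0.75 (A_51_P114456), 0.37 and 0.38 (A_51_P513586) and 0.28 and 0.23 (A_52_P144794). For Ccl21a they were 0.58 and 0.17, and for Pttg1 0.16 and 0.23. The gaps alone therefore do not show a further level. For Slx1b, 8430429K09Rik and 2 of the 3 Tceanc2 probes, the split placed all 24 mice at the same of 3 levels in both regions. For Gdpd3 21 of 24 mice were placed alike, for Pttg1 23, for the third Tceanc2 probe 15, and for Ccl21a 17.

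Slx1b (A_51_P335104) was low in 5 mice: Per3 5/5 mouse 3 and Per3 4/4 mice 2, 3, 5 and 6. In cortex the 5 lay between -4.75 and -3.85, 9 mice lay in a middle level between -0.38 and 0.11, and 10 in a top level between 0.62 and 1.11. In hypothalamus the same mice lay between -4.30 and -3.16, between -0.24 and 0.31 and between 0.65 and 1.1. The median in cortex was 0.47 in Per3 5/5 (from -4.01 to 1.11), -1.96 in Per3 4/4 (from -4.75 to 0.70) and 0.65 in WT (from -0.27 to 0.98). Only 1 of 8 Per3 4/4 mice was at the top level, compared with 4 of 8 Per3 5/5 and 5 of 8 WT mice. The second Slx1b probe (A_51_P113773) showed none of this, with values from -1.70 to -0.63 in cortex and between -1.66 and -0.53 in hypothalamus, and the 5 low mice lay inside that range at -1.12 to -0.68 in cortex.

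Gdpd3 (A_51_P426875), with 4 genes between it and Slx1b, was lowest in the mice in which Slx1b was highest. In cortex the 10 mice at the top level of Slx1b had Gdpd3 between -7.24 and -5.23, the 9 at the middle level between -1.13 and -0.47, and the 5 at the low level between -0.27 and 0.49. These 3 ranges did not overlap. In hypothalamus the corresponding ranges were -6.21 to -4.25, -1.17 to -0.15 and -0.17 to 0.30, the last 2 of which touched through Per3 5/5 mouse 7. The 10 low mice for Gdpd3 were 4 of 8 Per3 5/5, 1 of 8 Per3 4/4 and 5 of 8 WT, and its medians in cortex were -3.04, -0.53 and -5.43. One of the 10 low arrays in each region was not well above background. The correlation of the 2 genes across 24 mice was -0.71.

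**Figure D3:**
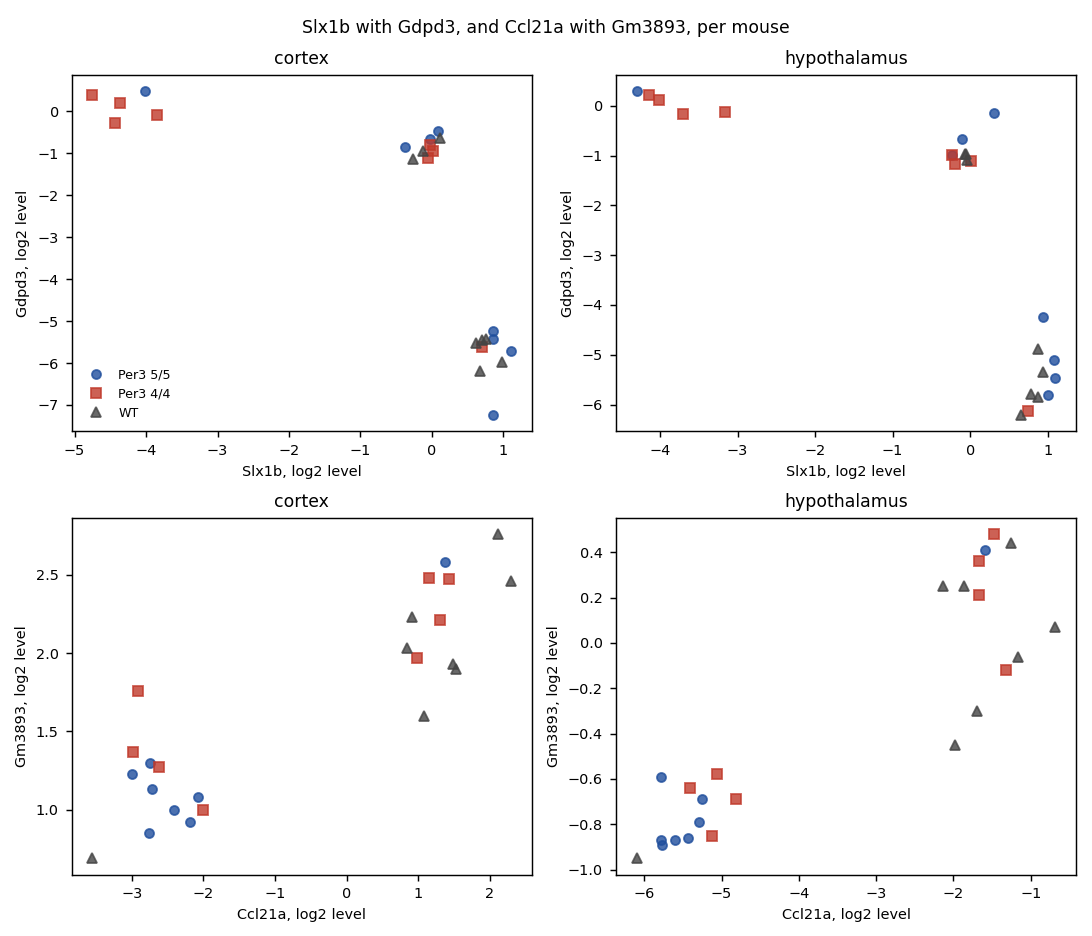
Log2 levels of Slx1b (x axis) and Gdpd3 (y axis) in the upper panels, and of Ccl21a (x axis) and Gm3893 (y axis) in the lower panels, 1 point per mouse, with symbols by genotype. In cortex the mice form 3 clusters of 5, 9 and 10 in which Gdpd3 falls as Slx1b rises, whereas Gm3893 rises with Ccl21a over a range of 0.69 to 2.76.

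Tceanc2 was measured by 3 probes that agreed on the mice. The 3 low mice were Per3 5/5 mouse 2, Per3 4/4 mouse 1 and WT mouse 6 for every probe and in both regions. On A_51_P513586 they lay at -4.10, -4.09 and -4.51 in cortex and at -4.74, -4.96 and -5.43 in hypothalamus. A middle level of 6 mice lay between -0.91 and -0.51 in cortex and between -0.67 and -0.23 in hypothalamus, and a top level of 15 mice between -0.15 and 0.49 and between 0.15 and 0.84. No Per3 5/5 mouse was at the middle level, against 3 of 8 Per3 4/4 and 3 of 8 WT mice. The low mice read -5.76 to -5.46 in cortex on A_51_P114456 and -8.07 to -6.36 on A_52_P144794, and these 3 arrays were not well above background on the latter in both regions and on the former in hypothalamus. The 3 probes correlated at 0.97 to 1.0 across mice, and each lowest mouse was in a different genotype.

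8430429K09Rik (A_51_P273468) had 9 low mice, 5 of 8 in Per3 5/5, 2 of 8 in Per3 4/4 and 2 of 8 in WT. In cortex they lay between -8.71 and -5.09, 7 mice lay between -1.30 and -1.07, and 8 between -0.35 and -0.06. In hypothalamus the same mice lay between -7.43 and -6.47, between -1.69 and -1.45 and between -0.83 and -0.34. The medians in cortex were -5.61 in Per3 5/5, -1.25 in Per3 4/4 and -0.66 in WT. Of the 9 low arrays, 5 in cortex and 8 in hypothalamus were not well above background, so those values are bounds and have no order among themselves. With normexp background correction 22 of the 24 mice were on the same side in both regions. The other probe of this gene (A_52_P97626) ranged from -2.64 to -1.87 in cortex and showed no levels, with low and high mice over the same range.

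Dusp18, on the far side of Tug1 in the gene order, followed 8430429K09Rik on 2 of its 3 probes. On A_51_P362738 the mice low for 8430429K09Rik ranged from -8.41 to -5.17 in cortex and the 15 others from -4.86 to -1.97, which did not overlap. In hypothalamus the ranges were -8.65 to -5.57 and -5.70 to -2.98, which overlapped slightly. On A_52_P89064 the cortex ranges were -3.72 to -2.63 and -2.53 to -1.08, again without overlap, and in hypothalamus they overlapped. The correlations with 8430429K09Rik across 24 mice were 0.93 and 0.89. The third probe (A_52_P493795) ranged from -2.62 to -1.94 and from -2.18 to -1.17 in cortex and the ranges overlapped in both regions. On A_51_P362738, 8 cortex and 7 hypothalamus arrays were not well above background.

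Pik3ip1 and Tug1 varied little. Pik3ip1 (A_51_P463428) ranged from 1.22 to 2.35 in cortex and between 2.23 and 3.06 in hypothalamus, and its correlation with 8430429K09Rik was 0.78. In cortex it lay between 1.22 and 1.77 in the mice low for that gene and between 1.5 and 2.35 in the others. One Tug1 probe (A_52_P599162) ran the other way, with a correlation of -0.74 and cortex values of -0.23 to 0.64 in the low mice and -0.46 to 0.21 in the others. The other 2 Tug1 probes ranged from -0.15 to 0.53 and from -1.77 to -1.21 in cortex and showed no relation above 0.7 in size to 8430429K09Rik.

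The genes most like each of the 6 by Pearson correlation over 24 mice (mean of both regions, 3 per gene, either sign) were on the same chromosome for 8430429K09Rik. They were Sf3a1, a splicing factor subunit (0.96, 38 genes away), Ccdc157 (0.95, 37 genes away) and Nipsnap1, a mitochondrial protein (-0.86, 58 genes away). Sf3a1 lay between -1.32 and -0.80 in cortex in the 9 low mice, between -0.33 and -0.07 in the 7 middle mice and between 0.07 and 0.50 in the 8 top mice, without overlap. In hypothalamus the 3 ranges were -1.38 to -1.17, -0.22 to -0.04 and 0.24 to 0.73, also without overlap. Nipsnap1 ran in the opposite order, at 2.70 to 3.33, 2.07 to 2.72 and 1.81 to 2.0 in cortex. The first 2 of these ranges touched.

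**Figure D4:**
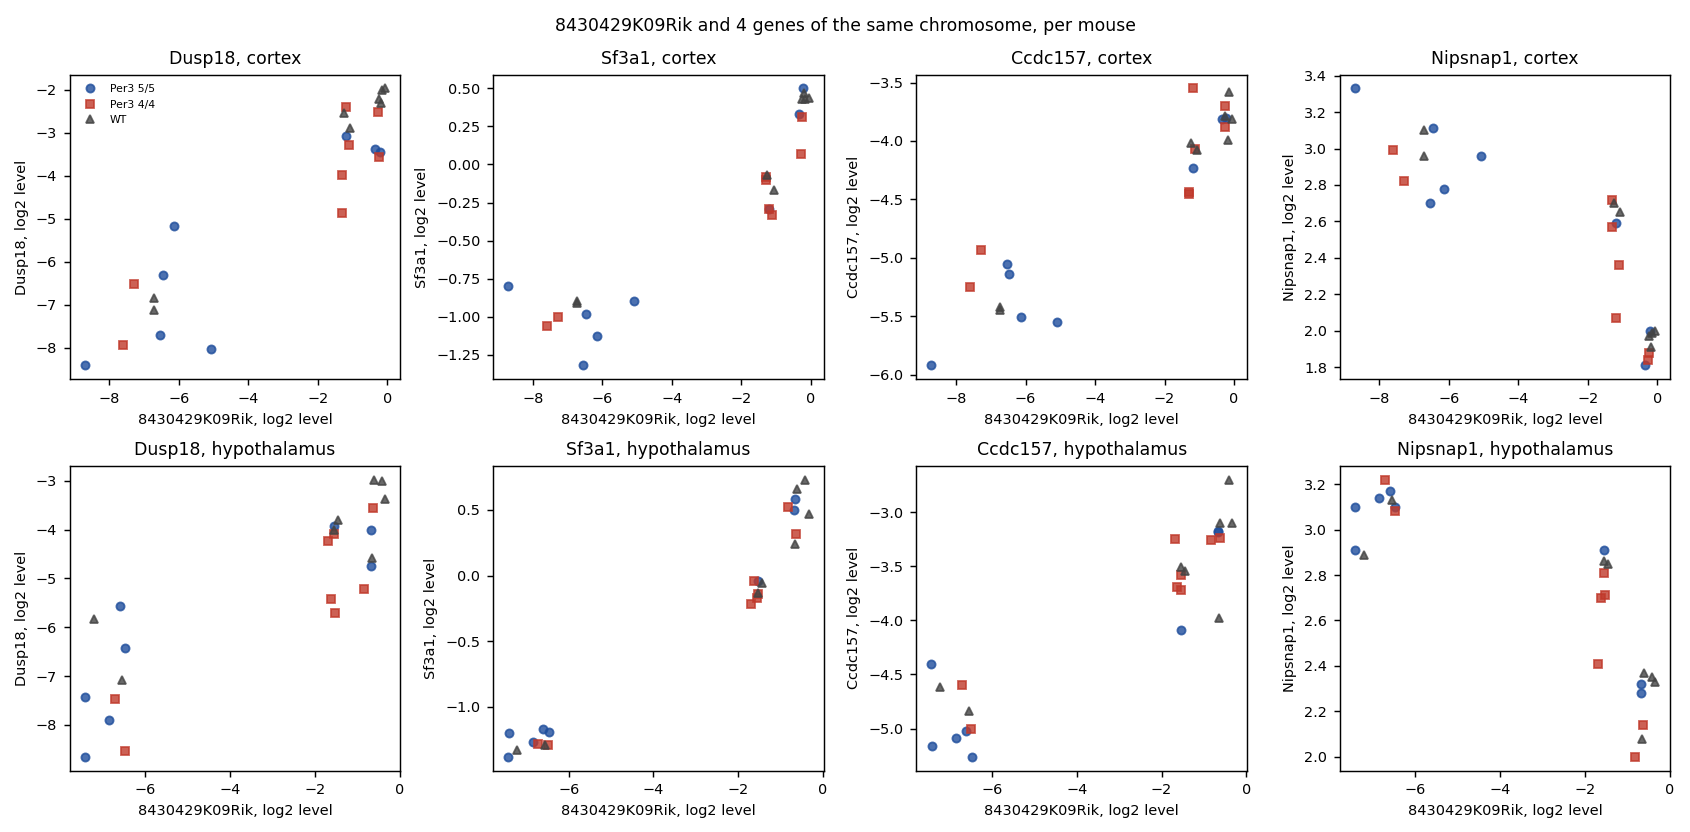
Log2 levels of Dusp18, Sf3a1, Ccdc157 and Nipsnap1 (y axes) against 8430429K09Rik (x axis), all on chromosome 11, in cortex (upper row) and hypothalamus (lower row), 1 point per mouse with symbols by genotype. Sf3a1 separates into 3 ranges that match the 3 levels of 8430429K09Rik in both regions, and Nipsnap1 falls as 8430429K09Rik rises.

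Tceanc2 had 2 genes of its own chromosome among its 3. Zyg11b, a ubiquitin ligase component (0.88, 34 genes away), lay at 0.79 to 0.95 in cortex in the 3 low mice and at 1.55 to 3.02 in the 21 others, and at 0.63 to 1.14 and 1.33 to 3.17 in hypothalamus. Mroh7 (-0.74, 10 genes away) lay at -2.66 to -1.80 in hypothalamus in the 3 low mice and at -5.37 to -2.20 in the others, which overlapped, and 9 of its 24 cortex arrays were not well above background. The third gene was Utp4 of chromosome 8 at -0.71. For the other 4 genes the correlations given here were between 0.71 and 0.78 in size. These genes were the best of a search over all named tested probes, and how often chance gives such sizes was not tested. For Ccl21a they were Sidt2 (-0.78), Tcfl5 (-0.77) and the cohesin subunit Rad21 (-0.73). For Slx1b they were Usp20 (0.74), Mark3 (0.73) and Sh3pxd2b (-0.71). For Pttg1 they were Nppa (0.74) and Zwilch (-0.73), and for Gdpd3 Tdpoz1 (0.72), Sec23ip (-0.71) and Abca6 (0.71). In hypothalamus the Rad21 probe differed by 0.53 in Per3 5/5 minus WT and another Rad21 probe by -0.33. Of these genes, Sec23ip lay on the chromosome of its member, 119 genes away.

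Levels of genes on different chromosomes met in varying combinations. Ccl21a and Slx1b were both high in 10 mice, both low in 3, and on different sides in 11. Pttg1 and Tceanc2 on different chromosomes met in the low mice of Tceanc2, all 3 of which were high for Pttg1, while the 3 other high mice of Pttg1 were high for Tceanc2. Slx1b and Gdpd3 were never both low in the same mouse.

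The difference between the regions was not used to choose the genes and could be tested. In limma's fit with mouse as a block, 9 of the 18 probes differed at an adjusted p under 0.05, against 73.9% of all 31242 probes. Ccl21a was lower in hypothalamus in 24 of 24 mice, with means of -0.64 (SD 2.11) in cortex and -3.50 (SD 2.03) in hypothalamus. The difference of -2.86 (SE 0.09, 7.24-fold, limma adjusted p = 1.6e-20) was larger than the spread of the paired differences (SD 0.45). It ran from -3.73 to -1.90 over the mice, so that both levels of Ccl21a moved down together. Gm3893 was likewise lower in hypothalamus in all 24 mice, by -2.0 (SE 0.05, limma adjusted p = 7.31e-22), from -2.45 to -1.54. Lower values in hypothalamus were found for 35.7% of all probes.

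Pik3ip1 and 1 Tug1 probe (A_51_P119401) were higher in hypothalamus in 24 of 24 mice, by 0.70 (SE 0.04, limma adjusted p = 2.11e-15) and 0.65 (SE 0.04, limma adjusted p = 1.72e-13). The other Tug1 probes differed by -0.06 and 0.00 (limma adjusted p = 0.201 and 0.906), so the probes of Tug1 did not agree. Pttg1 was 0.35 higher in hypothalamus (SE 0.06, limma adjusted p = 1.18e-05), in 21 of 24 mice. The 3 Dusp18 probes were lower in hypothalamus by -0.79, -0.55 and -0.34 (limma adjusted p = 6.34e-05, 7.31e-05 and 0.00311), in 20, 20 and 19 of 24 mice. The first of these rests in part on bounds, since 8 cortex and 7 hypothalamus arrays of that probe were not well above background. The 8430429K09Rik probe without levels differed by 0.14 (limma adjusted p = 0.0231), and by 0.07 without passing under quantile, median or normexp scaling.

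The probes with separate levels in Slx1b, Gdpd3, Tceanc2 and 8430429K09Rik did not pass this test. Their differences were 0.13 for Slx1b (SE 0.06, limma adjusted p = 0.077), 0.09 for Gdpd3 (SE 0.11, limma adjusted p = 0.473) and -0.25 for 8430429K09Rik (SE 0.12, limma adjusted p = 0.0542). For Tceanc2 they were -0.05, 0.15 and 0.13 (limma adjusted p = 0.794, 0.0898 and 0.0697), and 19, 20 and 17 of 24 mice were higher in hypothalamus. The most negative differences were -2.42, -0.92 and -0.65, each in 1 of the 3 low mice. The first is set by hypothalamus arrays that were not well above background, and the third by arrays that were not in either region. The 8430429K09Rik difference also rests in part on bounds, since 5 of 9 low cortex and 8 of 9 low hypothalamus arrays were not well above background. A p above the limit does not show that the regions were equal.

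**Figure D5:**
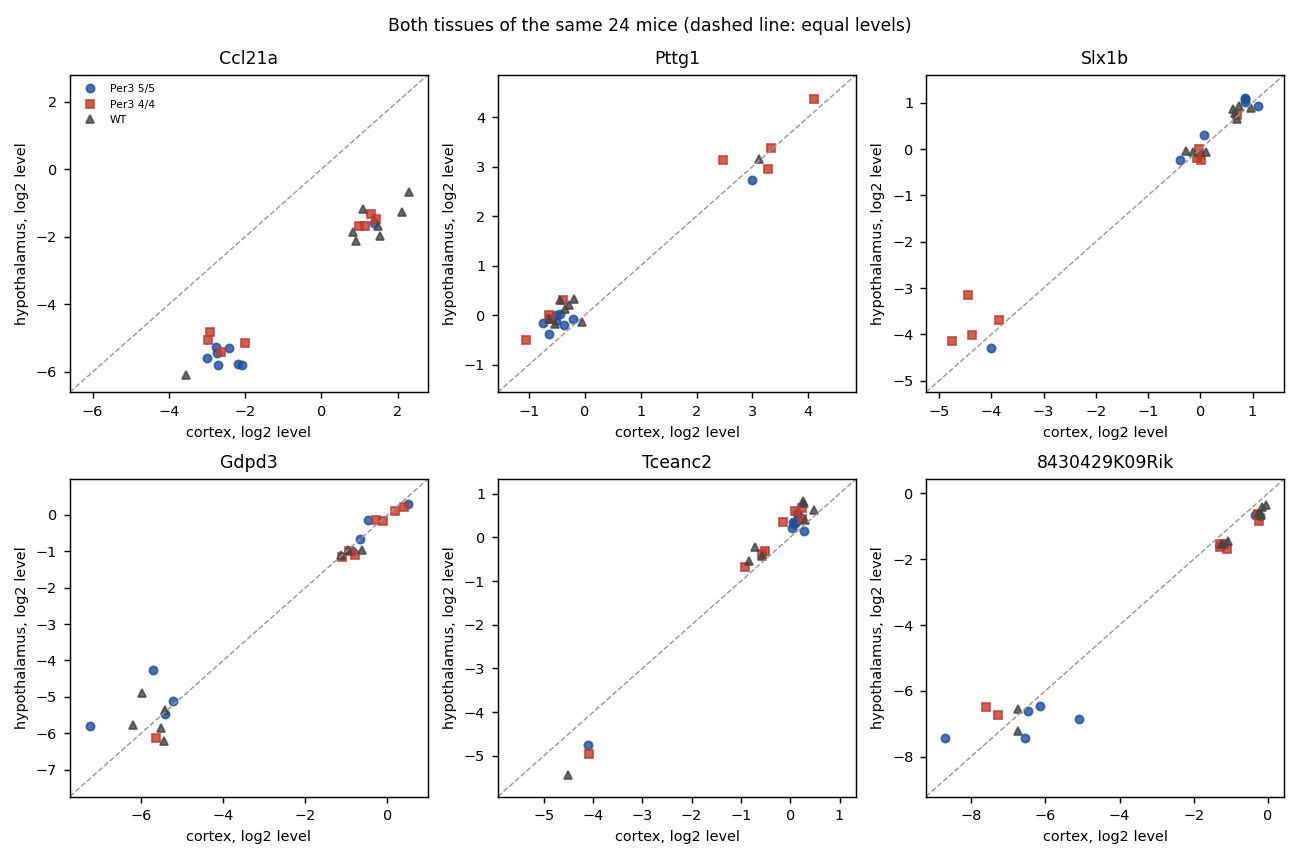
Log2 level in hypothalamus (y axis) against cortex (x axis) of 6 genes, 1 point per mouse with symbols by genotype; the dashed line marks equal levels. Each mouse keeps its level in both regions, and Ccl21a lies below the line in 24 of 24 mice.

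Whether genotype differences varied with the region is given as a description, because probes with the same mice at each level in both regions were chosen and a small interaction follows from that choice. In limma's interaction fit, none of the 18 probes passed for Per3 5/5 minus WT, Per3 4/4 minus WT or Per3 5/5 minus Per3 4/4, where 0.0096%, 0.0032% and 0% of all probes did, and 1946, 1563 and 1196 of all probes had an unadjusted p under 0.05. The smallest unadjusted p among the 18 was 0.0503, for Gdpd3 in the comparison of the knock-ins.

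The mean differences between genotypes are given as a description, since the probes were chosen on them. In cortex, 1 of the 18 probes had a limma adjusted p under 0.05 for Per3 5/5 minus WT (12.3% of all probes), 2 for Per3 4/4 minus WT (22.5%) and 0 for Per3 5/5 minus Per3 4/4 (0%). In hypothalamus the counts were 1 (18.8%), 2 (15%) and 0 (0%). The Per3 5/5 minus WT probe was Ccl21a in both regions, at -2.90 (SE 0.85) and -2.96 (SE 0.79). The Per3 4/4 minus WT probes were the 2 of Slx1b, which went in opposite directions, at -2.53 (SE 0.82) for the probe with levels and 0.32 (SE 0.11) for the other in cortex. The second of these lost its call in both regions under quantile scaling (0.29 in cortex and 0.34 in hypothalamus) and under median centring (0.26 and 0.30). That probe also lost its call in both with no filter on dim probes and with slide as a block (0.27 and 0.31). In hypothalamus alone it lost it under normexp (0.32) and with replicate number as a block (0.36). The Slx1b probe with levels lost its call in hypothalamus under normexp (-1.84), with no filter (-2.33) and with slide as a block (-2.30). Ccl21a lost its call in both regions with slide as a block (-2.55 and -2.68). With scan day as a block in limma none of the 18 passed in any comparison. Unadjusted p-values under 0.05 were found for 3 cortex and 2 hypothalamus probes of the 18 in Per3 5/5 minus WT. In Per3 4/4 minus WT they were found for 3 in each region. Over all probes with this block, they were found for 6719 of 29727 in cortex and 6840 of 30751 in hypothalamus for Per3 5/5. For Per3 4/4 the counts over all probes were 7529 and 5967. The same differences were then -2.73 and -2.88 for Ccl21a and -2.29 and 0.29 for the Slx1b probes in cortex. The block lowered the count over all probes as well, to 293 and 2293 in cortex and 644 and 229 in hypothalamus for Per3 5/5 and Per3 4/4 minus WT. Both knock-in comparisons share the WT arrays. Between the knock-ins, unadjusted p-values under 0.05 were found for 1 of the 18 probes in cortex (4657 of all probes) and 4 of the 18 in hypothalamus (4984 of all probes).

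Genes next to the selected ones were not chosen on their own values. Neighbours that were themselves among the 10 selected genes had been left out, so the set is what remained after that choice. The 5 nearest tested genes on either side of each member gave 62 genes. In cortex 7 of 62 passed for Per3 5/5 minus WT, 6 of them higher, and 18 passed for Per3 4/4 minus WT, 12 of them higher. In hypothalamus 12 passed for Per3 5/5 minus WT, 11 of them higher, and 10 for Per3 4/4 minus WT, 9 of them higher. The shares over all probes were 12.3%, 22.5%, 18.8% and 15%, and the neighbours' counts lay on either side of them. The direction depended on the scaling: with median centring 0 were higher and 5 lower for Per3 5/5 and 2 higher and 7 lower for Per3 4/4 in cortex, and 7 higher and 3 lower and 5 higher and 4 lower in hypothalamus. In the same order the median differences were 0.05, 0.14, 0.06 and 0.11, beside 0.06, 0.02, 0.03 and 0.02 over all probes. With scan day as a block 0, 6, 0 and 1 of the 62 passed in limma, with 10, 17, 13 and 13 at an unadjusted p under 0.05. Over all probes the block left 6719 and 7529 of 29727 at such a p in cortex, and 6840 and 5967 of 30751 in hypothalamus. Between the knock-ins, without the block, 0 of the 62 passed in limma in either region. There 9 in each region had an unadjusted p under 0.05, beside 4657 and 4984 of all probes.

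The neighbours that passed in both knock-ins and both regions were Aldoa and Mapk3 near Gdpd3 and Limk2 near 8430429K09Rik. Aldoa, the glycolytic enzyme aldolase A, ranged from 8.65 to 9.16 in cortex of Per3 4/4 mice (median 9.03) and from 8.27 to 8.53 in WT (median 8.4), which did not overlap. Its difference of 0.56 (SE 0.10, limma adjusted p = 0.00175) was 0.41 with scan day as a block (limma adjusted p = 0.0098) and 0.55 within scan day 2 (3 against 5 mice). In hypothalamus it was 0.54 (limma adjusted p = 0.00402), and 0.43 with the block (limma adjusted p = 0.0397). For Per3 5/5 the difference in cortex was 0.32 (SE 0.10, limma adjusted p = 0.0437), and it was 0.25 with the block (limma adjusted p = 0.108) and 0.12 within scan day 3 (4 against 3 mice). Mapk3, the kinase ERK1, was higher by 0.30 to 0.34 and Limk2, a kinase that acts on cofilin, by 0.25 to 0.34. Neither passed with scan day as a block, where Mapk3 differed by 0.19 to 0.28 (limma adjusted p = 0.148 to 0.265) and Limk2 by 0.15 to 0.23 (limma adjusted p = 0.101 to 0.308).

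Genes that act with the members' products, or are their relatives, had a split between higher and lower calls that depended on the scaling. Of 59 listed genes 51 were tested in each region. In cortex 3 were higher and 2 lower for Per3 5/5 minus WT, and 9 higher and 6 lower for Per3 4/4 minus WT. In hypothalamus 4 were higher and 4 lower for Per3 5/5, and 6 higher and 6 lower for Per3 4/4. These were 5, 15, 8 and 12 of 51, beside 12.3%, 22.5%, 18.8% and 15% of all probes. With median centring the splits of higher and lower were 0 and 5, 2 and 10, 1 and 7, and 3 and 9. In the same order the median differences were -0.03, -0.06, -0.04 and -0.07. With scan day as a block 0, 4, 1 and 0 passed in limma, with 11, 13, 10 and 13 of 51 at an unadjusted p under 0.05. Over all probes such a p was left by the block for 6719 and 7529 of 29727 in cortex. In hypothalamus it was left for 6840 and 5967 of 30751. Those that passed in both knock-ins and both regions without the block were Akt1, the kinase downstream of PI3 kinase (0.25 to 0.30 higher), and Pik3r2, a regulatory subunit of PI3 kinase (0.32 to 0.38 higher), both from the list around Pik3ip1. With scan day as a block, Akt1 passed only in cortex of Per3 4/4 mice, at 0.30 (limma adjusted p = 0.031), and Pik3r2 in no comparison (limma adjusted p = 0.0934 to 0.302). The chemokine Ccl19, which shares the receptor of Ccl21a and lies near it, did not pass in any comparison, at -0.37 (SE 0.19, limma adjusted p = 0.177) in cortex of Per3 5/5 mice, and is counted in both lists. Between the knock-ins 0 of the 51 passed in limma. Unadjusted p-values were under 0.05 for 4 of them in cortex (4657 of all probes) and 6 in hypothalamus (4984 of all probes).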

How the data were processed

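Each sample was hybridised to its own 1-colour Agilent mouse array. The authors' Feature Extraction software wrote the deposited intensity values (background-subtracted processed signal) and, per the file headers, a quality call for each spot (well above background, saturated, outlier), which is a code of 0 or 1 and not a measurement. The series table of log2 values deposited by the authors had been shifted to the 75th percentile of each array and centred per probe, and it served as an alternative. The arrays give no counts, so the number of mice sets the precision. Nothing in the labels ties replicates to litters, so p-values measure the spread between these mice.

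From the processed signal, log2 values minus the log2 of each array's 75th percentile over 43379 non-control spots were computed, outlier spots were left out and spots of a probe were averaged, giving 41174 probes, of which 67.2% could be named through RefSeq accessions. Array 75th percentiles ran from 307.2 to 1884 before scaling. A probe was tested where at least 6 of the 8 arrays of some group read it well above background. Tests used limma 3.58.1 in R 4.3.3 with Benjamini-Hochberg adjustment over all tested probes of a comparison, at 0.05. Genotypes were compared within a region over all 24 arrays, and regions with mouse as a block, since both samples of a mouse carry its number. The genotype and region fits were checked on simulated data.

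The members and the gene lists were chosen with earlier results of these data known. Genes named besides the members were the 3 best correlated with each gene that had levels, up to 10 named genes with shared levels, and neighbours and partners called in both knock-ins and both regions. One of the correlated genes is not reported here. The alternatives were quantile, median and normexp scaling (offset 50), other gap limits, other filters on dim probes, scan day, slide or replicate number as a block, unpaired regions, and the authors' table.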

Additional observations from a re-analysis of the deposited data

Results flagged for a closer look

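Within 36 of 108 groups (a probe in 1 region and genotype, 8 mice each), the highest or lowest mouse stood apart from the rest by Dixon's criterion. The criterion is set so that chance meets it in about 1 group of 20. These probes were chosen for separate levels and share mice, so the count is a description and cannot be compared with that rate. Most of the mice that stood apart are the single mice at the other level. Values below are log2 levels relative to the 75th percentile of the array.

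For Ccl21a, Per3 5/5 mouse 2 was highest at 1.38 in cortex and -1.59 in hypothalamus, and WT mouse 3 lowest at -3.55 and -6.10. For Gm3893 the same Per3 5/5 mouse 2 was highest at 2.58 and 0.41. For Pttg1 it was again highest at 3.0 and 2.72, and WT mouse 6 was highest of its genotype at 3.12 and 3.15. For Slx1b (A_51_P335104), Per3 5/5 mouse 3 was lowest at -4.01 and -4.30. For Gdpd3, Per3 4/4 mouse 7 was lowest at -5.63 and -6.12.

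For Tceanc2 the lowest mouse of each genotype stood apart on all 3 probes in both regions. Per3 5/5 mouse 2 read -5.61, -4.10 and -6.70 in cortex and -8.03, -4.74 and -7.09 in hypothalamus on A_51_P114456, A_51_P513586 and A_52_P144794. Per3 4/4 mouse 1 read -5.46, -4.09 and -6.36 in cortex and -7.34, -4.96 and -7.01 in hypothalamus on the same probes. WT mouse 6 read -5.76, -4.51 and -8.07 in cortex and -8.00, -5.43 and -8.26 in hypothalamus. The readings of these mice on A_52_P144794 in both regions and on A_51_P114456 in hypothalamus were not well above background and are bounds.

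Such a mouse was also present for 4 probes without levels. The 8430429K09Rik probe A_52_P97626 was highest in cortex of Per3 4/4 mouse 5 at -1.87. The Dusp18 probe A_52_P493795 was lowest in hypothalamus of WT mouse 3 at -3.96. The Tug1 probe A_51_P119401 was lowest in hypothalamus of Per3 4/4 mouse 8 at 0.44, and the Tug1 probe A_52_P62428 was highest in hypothalamus of Per3 4/4 mouse 1 at -1.24.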

How the results depend on the processing

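All 8 probes kept their levels under quantile and median scaling and gap limits of 0.75 and 1.5. Normexp correction left 5: Ccl21a (gap 0.84 in hypothalamus) and A_52_P144794 of Tceanc2 (0.35 and 0.48) fell under the limit, and 8430429K09Rik kept gaps of 1.49 and 1.23 with 22 of 24 mice on the same side. Splitting the upper level again, a choice made after seeing the data, gave 4 probes with the same mice at 3 levels. The 50 shared probes became 22 under normexp, 98 at a gap of 0.75 and 20 at 1.5. The 6 genotype calls of the members, summed over comparisons and regions, became 3 with no filter on dim probes, 0 with scan day and 1 with slide as a block. With scan day as a block the 47 calls of neighbours became 7 and the 40 of partners 5. With the replicate number as a block the counts were 5, 48 and 50. Same-numbered mice of different genotypes correlated between -0.42 and 0.46 in cortex and between -0.20 and 0.52 in hypothalamus. Mice 1 to 4 of Per3 5/5 shared their slides with the Per3 4/4 mice of the same number, so the number partly follows the slide. Any further pairing by number was not tested. Unpaired, 6 of 18 probes differed between regions instead of 9, without Pttg1, Dusp18 (A_51_P362738) and 8430429K09Rik (A_52_P97626). Region differences changed sign for Tug1 A_52_P62428 (-0.05 under quantile, -0.07 under median and 0.00 under normexp scaling), and under normexp for Tceanc2 A_51_P114456 (0.13) and Gdpd3 (-0.05), none of which had passed. The 8430429K09Rik probe A_52_P97626 lost its call at 0.07 under all 3 scalings. The cause of these changes was not tested. For Per3 4/4 minus WT the median over all probes moved from 0.02 to 0.23 in cortex and to 0.16 in hypothalamus under normexp, and for Per3 5/5 minus WT in cortex from 0.06 to -0.05 under median centring. Low values not well above background, 5 of 9 in cortex and 8 of 9 in hypothalamus for 8430429K09Rik and 1 of 10 in each region for Gdpd3, are bounds. So are the 3 low values of Tceanc2 on A_52_P144794 in both regions and on A_51_P114456 in hypothalamus. For Dusp18 (A_51_P362738), 8 cortex and 7 hypothalamus values are bounds as well.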
